A study of Mus musculus with 8 samples.

Results

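Satellite cells were compared with endothelial cells of mouse hindlimb muscle over all genes that were detectable in these 2 sorted populations. The gene table was reduced to genes whose FPKM reached 1 or more in 2 or more of the 5 libraries concerned, which left 16001 of 36048 genes. FPKM is the number of fragments on a gene for each kilobase of its transcript, relative to all fragments of its library. At the edge of this filter, Trim6 was kept with a second highest value of 1.000 FPKM and Ttf2 was left out with 0.9996. The compared groups were 3 libraries of endothelial cells (EC, replicates 1, 2 and 3) and 2 of satellite cells (SC, replicates 1 and 3). About 100000 cells entered each library after sorting by flow cytometry, and 10 ng of total RNA was copied with random primers. No treatment, genotype, strain or age is named in the labels for either group, and the sorting markers are not given there. The labels also do not say whether replicates came from separate animals, so every p-value below speaks only of the spread among the 5 libraries and that spread may be technical.

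Satellite cells are the stem cells of skeletal muscle. They lie between the fibre membrane and its basal lamina, rest in uninjured muscle, and carry the transcription factor Pax7. Endothelial cells form the inner wall of the capillaries that run along the same fibres, where they hold the barrier with junction proteins, sense flow and respond to cytokines in the blood. Both cell types lie within a short distance of each other on the fibre. Release of cells from muscle for sorting is itself known to induce immediate early genes.

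The libraries matched their labels by defining markers. All 25 endothelial markers were higher in EC, with summed levels of 4152 to 4326 FPKM in EC and 47.6 to 81.6 in SC, and 19 of 23 markers of satellite cells lay higher in SC, with sums of 1980 to 2084 FPKM in SC and 122.0 to 169 in EC. Of the other 4, Vcam1, Hey1 and Cxcr4 were not called, and the syndecan Sdc3 was higher in EC, with 5 and 7.81 FPKM in SC and 30.9, 22 and 28.9 in EC. Of the lymphatic markers 4 of 5 were higher in EC (sums of 164 to 177 FPKM in EC and 27.6 to 30.0 in SC), and the fifth, the homeobox gene Prox1, was higher in SC (26.4 and 28.8 FPKM) than in EC (3.1, 4.12 and 3.15). The sums also hold Ccl21a, whose symbol is found on more than 1 row and which was not counted among the 5. Markers of other cells also moved with the groups. Myofibre transcripts summed to 253 and 401 FPKM in SC and to 14.1 to 28.3 in EC (14 of 16 higher in SC), immediate early genes to 7909 and 10820 in SC and 3732 to 5160 in EC (12 of 20 higher in SC), and haemoglobin and other erythroid genes to 64.4 and 113 in SC and 271 to 583 in EC (5 of 5 higher in EC). Immune markers summed to 200.4, 19.6 and 271 FPKM in EC and 56.6 and 91.2 in SC, and none of 9 was called. Of 12 pericyte and smooth muscle markers 3 were higher in SC (Notch3, Acta2 and Des, of which Notch3 and Des are also satellite cell markers here) and 3 in EC (Rgs5, Pdgfrb and Myh11), and these counts were 1 and 2 without SC replicate 1 and 0 and 1 without SC replicate 3. Of 11 fibro-adipogenic markers 3 were higher in SC (Col3a1, Dpt and Gsn) and 1 in EC (Ly6a). The Schwann cell marker that passed the filter, Pmp22, and 1 of 3 tenocyte markers, Scx, were higher in SC. In EC replicate 2 the immune genes S100a8, Tyrobp and C1qb were listed at 0. Adgre1 and Cd3e were listed at 0 there too, but also in other libraries of both groups. Calls on the small lists depended on single libraries: with SC replicate 1 or 3 left out, no erythroid gene, 1 fibro-adipogenic gene in each direction and 4 immediate early genes were called. Myofibre calls were 9 without SC replicate 3. With EC replicate 2 left out, 8 pericyte markers in place of 3, and 4 immune markers, were higher in EC. EC replicate 2 had the lowest EC value for 11 of 12 pericyte markers, 8 of 9 immune, 16 of 20 immediate early and 5 of 5 erythroid markers. The same count was 11 of 25 for endothelial, 7 of 16 for myofibre and 1 of 5 for lymphatic markers. Among lists of other genes it varied, with 37 of 50 for splicing factors, 51 of 90 for chromatin enzymes, 25 of 60 for ribosome biogenesis and 0 of 19 for antigen presentation. The share over all tested genes was not counted. This library also had the fewest genes above 0, 20071 against 24670 and 25139 in EC replicates 1 and 3. Adipocyte markers did not pass the filter. In bulk RNA, fewer cells of a type and less RNA per cell cannot be told apart. The part of these other cells in the results below was not tested, except where values without a library are given.

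Between the 2 populations 4702 genes differed, 29.4% of those tested. Of these, 2618 were higher in SC (16.4%) and 2084 higher in EC (13.0%) by limma on log2(FPKM + 1), with a Benjamini-Hochberg adjusted p under 0.05. Every difference quoted below is the SC mean minus the EC mean on this log2 scale, where changes of weakly expressed genes come out too small, and every adjusted p comes from this fit. Differences of at least 1 were reached by 2143 genes higher in SC and 1742 higher in EC, differences of at least 3 by 197 and 349, and differences of at least 5 by 31 and 68, so the extreme differences were more often on the EC side. The values of SC and EC libraries did not overlap for 55.9% of all tested genes. Among the 10505 genes with an ordinary symbol the calls were even, 1791 higher in SC and 1728 higher in EC, whereas among the 5496 predicted genes, short RNAs and pseudogenes they were 827 and 356.

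**Figure D1:**
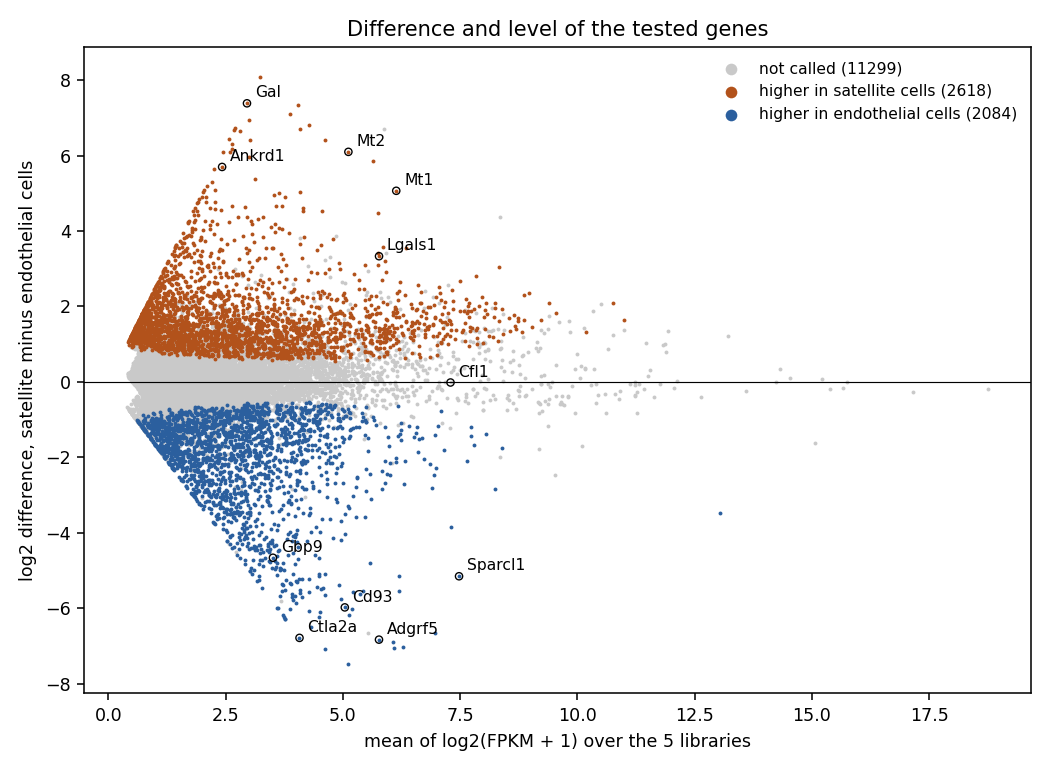
Log2 difference (SC minus EC, y axis) against the mean of log2(FPKM + 1) over the 5 libraries (x axis) for the 16001 tested genes, coloured by call. The 2618 genes higher in SC and 2084 higher in EC lie mainly at low and middle levels, and Gal with 7.38 and Adgrf5 with -6.84 lie near the ends.

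The scaling of the libraries changed the balance of calls but not their direction. The 10 most abundant genes, mainly ribosomal and other structural RNAs, held 63.7% to 75.1% of all FPKM in a library, and their share was lower in both SC libraries (66.8% and 63.7%) than in the EC libraries (72.5%, 75.1% and 70.9%). Rescaling that left out the 50 top genes of each group moved the median of all genes by -0.25, and the calls became 1571 higher in SC (9.82%) and 2553 higher in EC (16.0%), so that the share of calls higher in SC went from 55.7% to 38.1%. Median-of-ratios scaling gave 2337 and 2318, a share of 50.2%, and upper-quartile scaling 2737 and 2150, a share of 56.0%. No gene was called in opposite directions under any of these 3 scalings. The genes called in the same direction under all 4 scalings were 1562 higher in SC (9.76%) and 2044 higher in EC (12.8%). For each gene group below the count is that as deposited, followed by the count under all 4 scalings where it differs, and by the counts without a single library where they move by more than 1.5 times. The median difference over all tested genes was 0.10 as deposited and -0.14 without the most abundant genes, and a group median is to be read against these. With 1 SC library left out the calls were 1224 and 1027 (7.65% and 6.42%, without SC replicate 1) or 1108 and 1216 (6.92% and 7.6%, without SC replicate 3), where the lone SC library was assumed to vary like the EC libraries. They were 1639 and 1479 (10.2% and 9.24%) without EC replicate 1, 2384 and 2184 (14.9% and 13.6%) without EC replicate 2, and 1753 and 1457 (11% and 9.11%) without EC replicate 3.

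**Figure D2:**
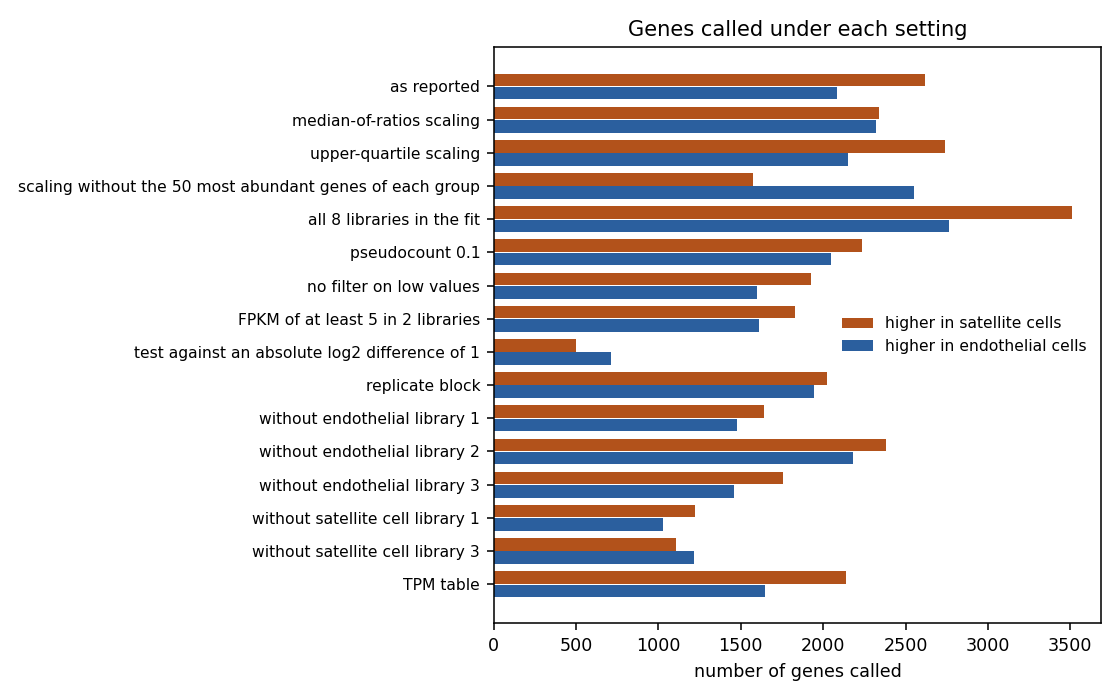
Number of genes called in each direction (x axis) under the reported setting and each alternative (y axis). The balance turns from 2618 against 2084 as reported to 1571 against 2553 when the 50 top genes of each group are left out of the scaling, and the counts are lowest, 500 and 711, in the test against an absolute log2 difference of 1.

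Beyond the myogenic markers, the genes with the largest differences toward SC included several secreted peptides. Gal, the precursor of the neuropeptide galanin, had 260.0 and 106 FPKM in SC, while every EC library listed it at 0 (difference 7.38, SE 0.38, adjusted p = 0.000214). Both SC libraries were high, replicate 1 above replicate 3. Nppc, which encodes C-type natriuretic peptide, had 67.4 and 108 FPKM in SC and likewise values of 0 in EC (adjusted p = 0.000126). Npr1 encodes a guanylyl cyclase receptor for natriuretic peptides other than the C-type. It had 0 and 0.168 FPKM in SC and 36.4, 42.5 and 33.4 in EC (difference -5.15, adjusted p = 0.000122). Fam132b, now Erfe, the precursor of the hormone erythroferrone, had 113 and 119 FPKM in SC and 0.384, 0.38 and 0.351 in EC (difference 6.41). Edn3, endothelin 3, had 33.9 and 25.7 FPKM in SC against 0.0758, 0 and 0 in EC. C1qtnf3, a secreted C1q and TNF related protein, had 23.8 and 22.9 against values listed at 0. An exact 0 in these tables may be a failed estimate, since the ribosomal protein gene Rps23, which every cell uses, is also listed at 0 in all 3 EC libraries and at 68.3 and 65.7 FPKM in SC. No fold change is therefore given for genes listed at 0 in a group.

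Other leading SC genes encode membrane, matrix, metal-binding and regulatory proteins. Chodl, the membrane lectin chondrolectin, had 142 and 143 FPKM in SC and 0.516, 0.0705 and 0 in EC (difference 6.94, SE 0.23), the second largest difference toward SC among the named genes. Hmcn2, a very large matrix protein of the hemicentin family, had 104 and 118 FPKM in SC and 0, 0 and 0.38 in EC. The metallothioneins Mt1 and Mt2, small zinc and copper binding proteins, were higher in SC. Mt1 had 617 and 539.8 FPKM in SC and 14.3, 12.7 and 23.6 in EC, and the values of Mt2 were 517 and 369 FPKM in SC and 5.99, 14.2 and 1.46 in EC (differences 5.06 and 6.10). All SC values of both genes lay above every EC value, while the EC values of Mt2 were uneven, and its adjusted p was 0.0655 without SC replicate 1 and 0.0575 without SC replicate 3. Asb5, part of a ubiquitin ligase, had 103 and 54.7 FPKM in SC and 0.369, 0 and 0 in EC. Dtx4, a Deltex ubiquitin ligase, had 79.9 and 111 FPKM in SC and 0.717, 0.23 and 0.653 in EC. Ankrd1, a muscle ankyrin repeat protein and a target of the co-activator YAP, had 50.3 and 63.1 FPKM in SC and 0.351, 0 and 0 in EC. Among the most abundant genes with a difference of at least 3 were Itm2a (134 and 139.5 FPKM in SC, 2.52, 4.79 and 2.65 in EC), Dag1, the dystroglycan that links the cell to laminin (210.1 and 179.6 FPKM in SC and 21.1, 24.4 and 20.3 in EC), and Cebpb, a transcription factor (153 and 169 FPKM in SC and 17.9, 14.7 and 21.8 in EC). Errfi1, an inhibitor of epidermal growth factor receptors, had 280.0 and 183 FPKM in SC and 26.8, 17.8 and 27.2 in EC, beside the immediate early gene Egr1 at 1013 and 1261 FPKM in SC and 161, 100.4 and 156 in EC.

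The leading EC genes outside the marker list included those of receptors, secreted proteins and a transcription factor. Adgrf5, an adhesion G protein-coupled receptor, had 357, 378 and 351 FPKM in EC and 3.27 and 1.36 in SC (difference -6.84, SE 0.28, adjusted p = 0.00014). Its relative Adgrl4 had 127, 118 and 124 FPKM in EC and 1.03 and 0.612 in SC. The EC libraries were close to each other for both. Rbp7, a retinol-binding protein, had 89.1, 59.2 and 87.3 FPKM in EC and values listed at 0 in SC, as had Ctla2a, a cysteine protease inhibitor (124, 99.8 and 106), and Tcf15, a basic helix-loop-helix factor (96.8, 42.1 and 90.8). C1qtnf9, a secreted protein of the family of C1qtnf3, had 195, 232 and 161 FPKM in EC and 2.64 and 0.988 in SC. The symbol of the chemokine gene Ccl21a is found on more than 1 row of the gene table. The row tested here had 66.1, 68.8 and 88.6 FPKM in EC and was listed at 0 in SC, and other values under this symbol are not given. Ccl21a has near-identical copies, and Gvin1 and Ctla2a have close relatives, so reads of these genes may have been split among copies. The most abundant were Sparcl1, a matrix protein (759, 690.4 and 780.5 FPKM in EC and 25.7 and 15.3 in SC), Igfbp7, a growth factor binding protein (499.6, 384 and 509 FPKM in EC and 35.1 and 27.6 in SC), the sphingosine 1-phosphate receptor S1pr1 (139.8, 181 and 143 FPKM in EC and 2.21 and 1.51 in SC), and the sialomucin Podxl (171, 158 and 195 FPKM in EC and 2.89 and 2.49 in SC). Plvap, which forms the diaphragms of endothelial fenestrae and caveolae, was uneven among EC libraries, with 133, 383 and 142 FPKM, against 5.13 and 1.55 in SC (difference -5.62). Rgs5 had 392, 153 and 473 FPKM in EC and 11.7 and 4.81 in SC, and it is known first as a pericyte marker. Pericyte markers summed to 648, 309.5 and 782 FPKM in the EC libraries and 413 and 503.5 in SC. Rgs5 is itself in this list and holds much of each EC sum, so the sums are no separate measure for it. The SC sums include Acta2 (135 and 194 FPKM) and Des (140 and 168 FPKM), the latter also a satellite cell marker here. The part of pericytes in the Rgs5 difference was not tested.

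**Figure D3:**
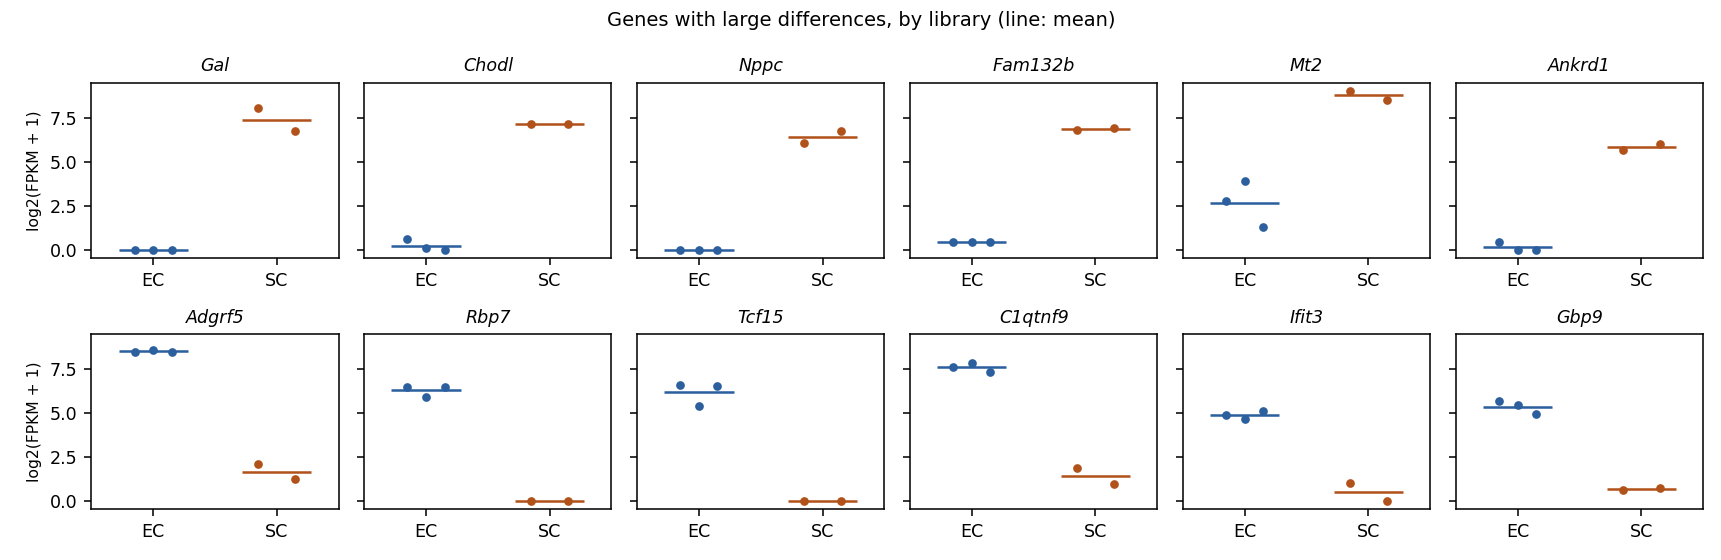
Values of 12 genes with large differences on the log2(FPKM + 1) scale (y axis) in each library, EC in blue and SC in orange, with a line at each group mean. In each panel the EC and SC points do not overlap. The spread within a group is visible for Gal (260.0 and 106 FPKM in SC) and Tcf15 (42.1 to 96.8 FPKM in EC).

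The genes of the interferon response were called almost wholly on the EC side. Of 51 tested members 41 were higher in EC and none higher in SC, the same 41 under all 4 scalings, with a median difference of -1.80. Against the background of 13.0% higher in EC, this was 80.4% of the list. The promoters of 4 members are shown because they carry the sequence by which interferon-activated transcription factors are known to bind these genes, the interferon-stimulated response element, searched here on both strands as GAAA, any 2 bases and GAAA. Each line gives the 250 bases before the transcription start, 5′ to 3′, from RefSeq on GRCm38.p6, with matches in capitals.
Ifit3: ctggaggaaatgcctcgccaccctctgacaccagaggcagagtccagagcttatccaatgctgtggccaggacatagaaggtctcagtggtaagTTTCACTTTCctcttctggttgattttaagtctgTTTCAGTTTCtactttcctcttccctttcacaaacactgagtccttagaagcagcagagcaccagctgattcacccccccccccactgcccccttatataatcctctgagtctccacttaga
Isg15: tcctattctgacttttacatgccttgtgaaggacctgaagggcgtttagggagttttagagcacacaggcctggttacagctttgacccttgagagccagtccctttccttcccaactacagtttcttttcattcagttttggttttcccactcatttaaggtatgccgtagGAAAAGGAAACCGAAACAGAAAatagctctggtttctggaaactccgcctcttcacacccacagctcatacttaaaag
Rsad2: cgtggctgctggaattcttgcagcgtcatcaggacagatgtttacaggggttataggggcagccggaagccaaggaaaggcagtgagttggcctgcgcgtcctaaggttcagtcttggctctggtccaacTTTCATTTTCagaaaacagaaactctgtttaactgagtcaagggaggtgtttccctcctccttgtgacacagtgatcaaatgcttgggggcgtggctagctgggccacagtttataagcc
Gbp5: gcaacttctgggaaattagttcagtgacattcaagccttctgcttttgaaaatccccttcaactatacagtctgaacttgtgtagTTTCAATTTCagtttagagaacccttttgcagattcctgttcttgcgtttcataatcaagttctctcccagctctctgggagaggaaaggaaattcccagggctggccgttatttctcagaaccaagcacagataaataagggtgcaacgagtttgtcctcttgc

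These windows lie at chr19:34583279-34583528, plus strand, chr4:156200819-156201068, minus strand, chr12:26456453-26456702, minus strand and chr3:142496684-142496933, plus strand. The Ifit3 window holds 2 matches, which begin 156 and 122 bases before the start, the Isg15 window 3 overlapping matches that begin 78, 72 and 66 bases before it, and the Rsad2 and Gbp5 windows 1 match each, at 120 and 165 bases. Over windows from 250 bases before to 50 bases after the start, the motif was found for 19 of the 32 interferon genes higher in EC that have a promoter in the RefSeq table (59.4%), and for 3.99% of all 27025 genes in that table. It was found for none of the 8 other tested members with a promoter. A match is a description of the letters and not a measured binding site, and the members were listed as known interferon targets, so the share is not independent of the choice of list.

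Ifit3, an antiviral protein induced by interferon, had 28.7, 24.2 and 33.6 FPKM in EC and 1.05 and 0 in SC (difference -4.37, SE 0.34, adjusted p = 0.000731). Isg15, a ubiquitin-like protein, had 28.7, 13.9 and 21.8 FPKM in EC and 2.29 and 1.16 in SC. Rsad2, the antiviral enzyme viperin, had 20.0, 13.6 and 20.9 FPKM in EC and 0.828 and 0.604 in SC. The guanylate-binding protein Gbp5 had 12.4, 15.2 and 12.9 FPKM in EC and 1.03 and 0.799 in SC. No SC library reached the lowest EC library for these 4 genes, which were named after their values were seen. Another guanylate-binding gene, Gbp9, had 50.4, 43.8 and 30.0 FPKM in EC and 0.583 and 0.687 in SC. Bst2, the membrane tether tetherin, had 45.6, 25.3 and 46.5 FPKM in EC and was listed at 0 in SC. Iigp1, an immunity-related GTPase, had 80.1, 93.9 and 70.7 FPKM against 3.14 and 1.47 in SC (difference -4.68). The membrane proteins Ifitm2 and Ifitm3, which block viral entry, were well expressed in both populations, with 271, 305 and 307 FPKM of Ifitm3 in EC and 125 and 129 in SC and a smaller difference (-1.20, adjusted p = 0.0088). Sequence shared among Ifitm genes and among guanylate-binding genes makes the split between copies uncertain. The receptor subunits were not called together: the list holds Ifnar1, Ifnar2, Ifngr1 and Ifngr2, of which Ifnar2 and Ifngr1 were higher in EC. Both SC libraries lay below all EC libraries for 45 of the 51 interferon genes and for 24.1% of all tested genes. The summed immune cell markers were lowest in EC replicate 2 (19.6 FPKM), a sum led in the other EC libraries by S100a9 (101.9 and 139 FPKM) and Lyz2 (43.7 and 62.3 FPKM). Not every member was lowest there: Cd14 had 3.69, 4.2 and 4.37 FPKM in EC and 2.56 and 1.03 in SC. The part of immune cells in the interferon values was not tested.

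Genes of antigen presentation also lay on the EC side. Of 19 tested members 14 (7 to 8 without SC replicates 1 or 3) were higher in EC, all 14 under all 4 scalings, with a median of -1.70. B2m, the common light chain of class I molecules, had 592, 945 and 519 FPKM in EC and 95.8 and 87.5 in SC (difference -2.84, adjusted p = 0.00245), and the heavy chains H2-D1 and H2-K1 were higher in EC. H2-D1 had 207, 264 and 169 FPKM in EC and 54.9 and 38 in SC, and the values of H2-K1 were 102, 169.7 and 88.7 FPKM in EC and 27.6 and 23.2 in SC. EC replicate 2 was the highest library for all 3. The adjusted p of H2-K1 was 0.0646 without SC replicate 1 and 0.0786 without SC replicate 3. Class I genes are near-identical to each other, so their single values are uncertain. Class II genes, which mark professional antigen-presenting cells, were at low levels: Cd74 had 2.75, 4.87 and 3.58 FPKM in EC and 1.22 and 2.23 in SC, H2-Ab1 had 1.9, 2.48 and 1.72 FPKM in EC and 2.85 and 1.46 in SC, and neither was called. H2-Aa was the sole member called higher in SC (1.68 and 2.17 FPKM against 0.52, 0 and 0), with an adjusted p of 0.0535 without EC replicate 2, 0.0725 without EC replicate 3, 0.0809 without SC replicate 1 and 0.111 without SC replicate 3. The activating subunits of the proteasome, Psme1 and Psme2, were the only proteasome genes higher in EC: Psme1 had 21.4, 22.1 and 25.3 FPKM in EC and 6.65 and 11.4 in SC, with an adjusted p of 0.0523 without EC replicate 3 and 0.055 without SC replicate 1. Psme2 had 11.4, 11.7 and 14 FPKM in EC and 2.95 and 6.89 in SC, with an adjusted p of 0.0775 without EC replicate 1, 0.068 without EC replicate 2, 0.0968 without EC replicate 3 and 0.0981 without SC replicate 1. Among all 39 proteasome genes tested, 3 (0 to 1 without EC replicates 1 or 3 or SC replicates 1 or 3) were higher in SC as deposited and 0 under all 4 scalings, and 2 (0 to 1 without EC replicates 1, 2 or 3 or SC replicate 1) were higher in EC.

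**Figure D4:**
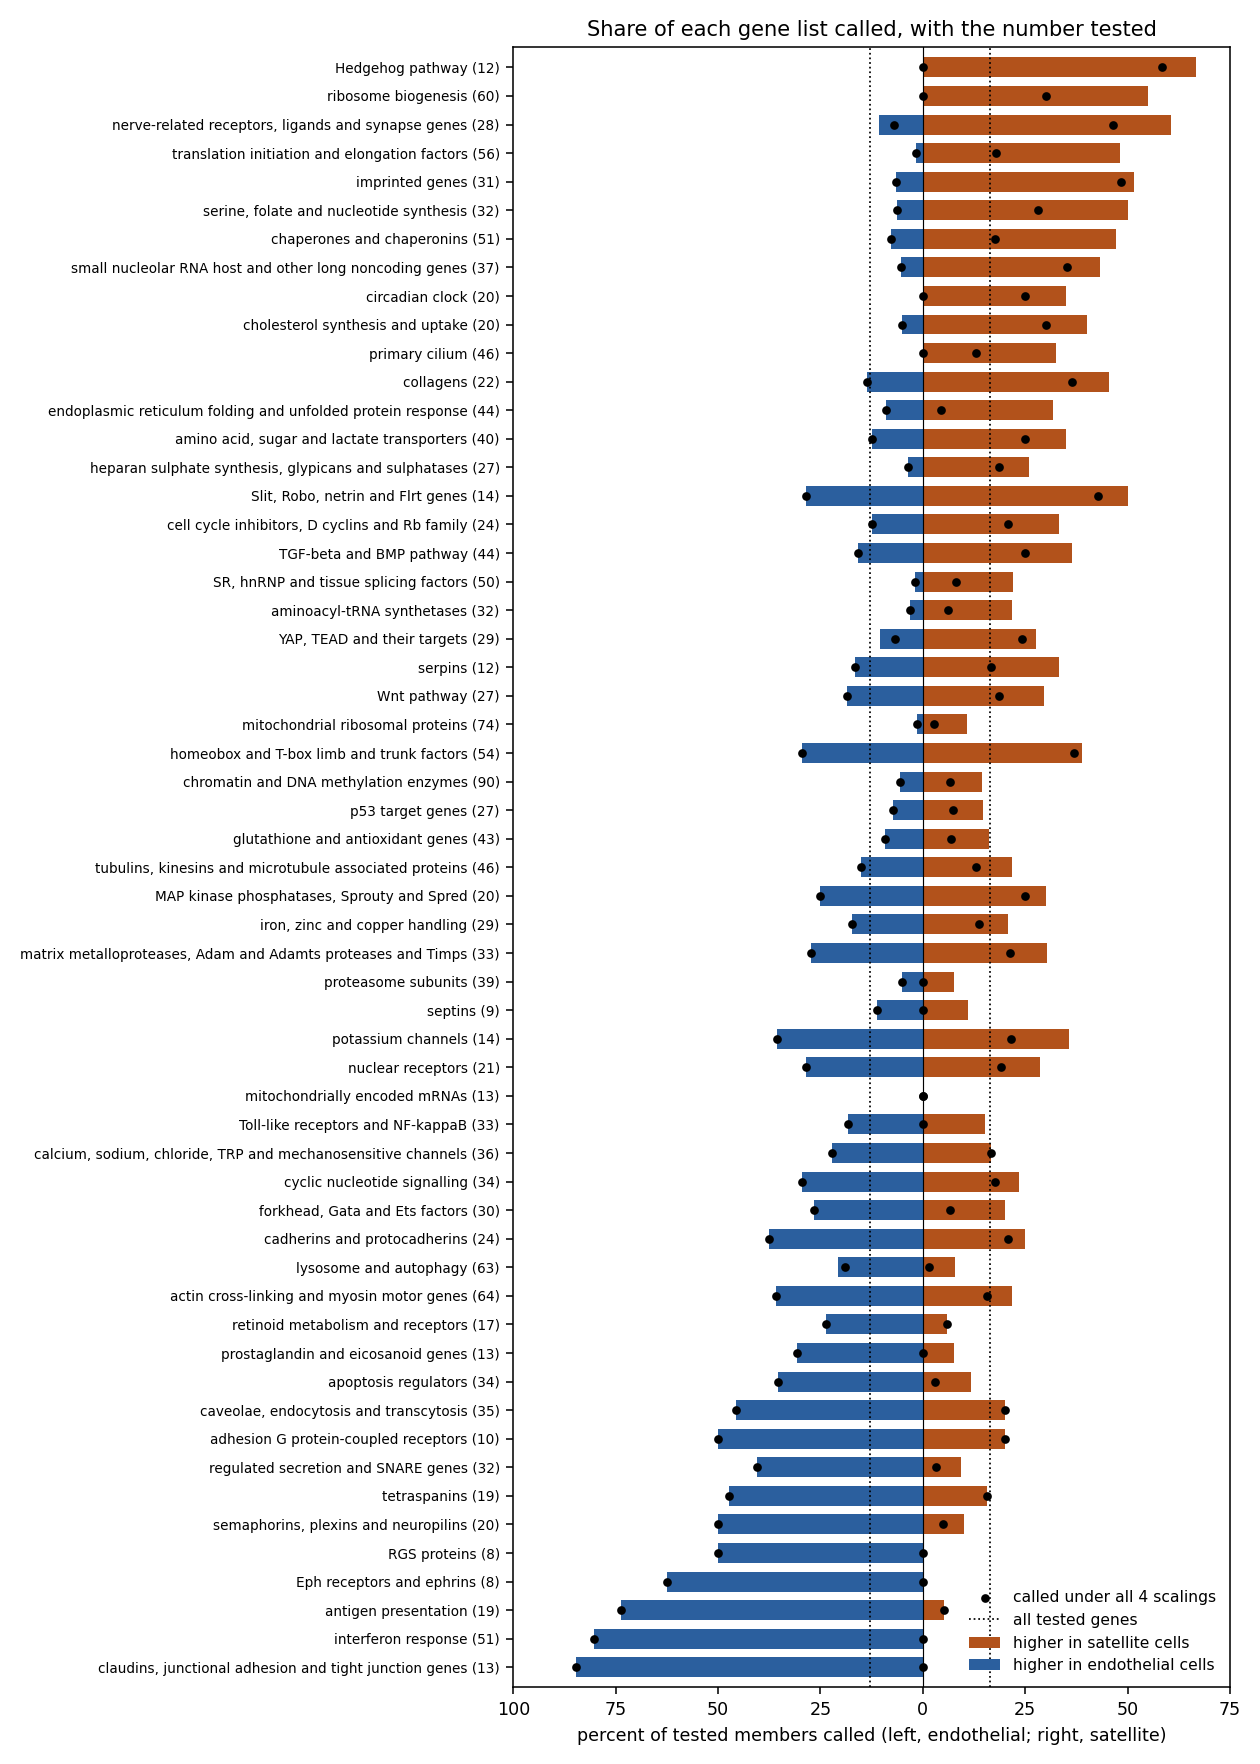
Percent of the tested members of each of 57 gene lists called higher in EC (left) or SC (right), with the number tested in brackets, black points for members called under all 4 scalings and dotted lines at 13.0% and 16.4%, the shares over all tested genes. The black points stay at or near the ends of the blue bars and lie inside many orange bars, as for ribosome biogenesis (33 as deposited, 18 under all scalings).

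Junction genes showed the largest share of all lists. Of 13 tested claudin, junctional adhesion and tight junction genes 11 were higher in EC and none in SC, the same number under all 4 scalings, with a median of -2.44. Cldn5 and Esam belong to the endothelial marker list and are no separate evidence. Outside it, Jam2 had 85.2, 89.2 and 71.4 FPKM in EC and 1.62 and 0.872 in SC (difference -5.22). F11r, junctional adhesion molecule A, had 38.4, 37.2 and 33.6 FPKM in EC and 1.16 and 0.403 in SC. The scaffold protein gene Tjp1 had 91.8, 91.5 and 95.8 FPKM in EC and 16.2 and 16.5 in SC. Tjp1 was above 2 FPKM in both SC libraries, where Jam2 and F11r were below it. Cadherins and protocadherins were divided, with 9 of 24 higher in EC and 6 (5 under all 4 scalings) higher in SC. The giant cadherin Fat4 had 19.6, 19.4 and 19.8 FPKM in EC and 3.08 and 2.06 in SC, while its relative Fat1 had 1.77, 0.671 and 1.84 FPKM in EC and 15.1 and 17.6 in SC. The catenin Ctnna1, which ties cadherins to actin, had 112, 118 and 120.0 FPKM in EC and 51.6 and 51.1 in SC (difference -1.17). Ctnnb1, beta-catenin, had 109.6, 97.2 and 113 FPKM in EC and 44.6 and 42.1 in SC (difference -1.28).

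Actin cross-linking and myosin motor genes were higher in EC for 23 (14 without SC replicate 3) of 64 and in SC for 14 (8 to 9 without SC replicates 1 or 3). Under all 4 scalings these counts were 23 and 10. Sptbn1, a spectrin of the membrane skeleton, had 230.3, 235 and 245 FPKM in EC and 45.2 and 50.0 in SC (difference -2.29). Nonmuscle myosin Myh9 had 138, 179.7 and 146 FPKM in EC and 48.7 and 60.5 in SC. Flnc, the muscle filamin, had 90.8 and 71.2 FPKM in SC and 0.735, 1.23 and 0.92 in EC (difference 5.38), in libraries whose myofibre markers summed to 253 and 401 FPKM. The part of fibre RNA in this value was not tested. Of 46 tubulin, kinesin and microtubule associated genes 10 (6 under all 4 scalings, 5 to 6 without EC replicates 1 or 2 or SC replicates 1 or 3) were higher in SC and 7 (3 to 4 without SC replicates 1 or 3) in EC. Over all tested genes 16.4% were higher in SC and 13.0% in EC, the latter near the share of this list. The tubulin Tubb2b, common in developing neurons, had 59.3 and 59.4 FPKM in SC and 1.86, 1.97 and 4.18 in EC. Map1b had 73.9 and 57.4 FPKM in SC and 13.1, 13.3 and 14.4 in EC. Of 9 septins 1 (0 under all 4 scalings, 0 to 2 without EC replicates 1 or 2 or SC replicates 1 or 3) was higher in SC and 1 in EC, below the background in both directions. Sept4 had 23.1, 16.8 and 32.6 FPKM in EC and 1.88 and 2.15 in SC.

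The called genes of membrane traffic lay mainly on the EC side, where 13.0% of all tested genes were called, against 16.4% in SC. Of the 63 lysosome and autophagy genes below, 45 were not called. Without EC replicate 1, 6 of these 63 were higher in EC, near the 9.24% over all tested genes. For caveolae, endocytosis and transcytosis 16 of 35 were higher in EC and 7 (4 without SC replicate 3) in SC. Ptrf and Sdpr, the cavins that coat caveolae, were higher in EC. Ptrf had 369, 335 and 373 FPKM in EC and 83.1 and 83.3 in SC, and the values of Sdpr were 362, 339 and 355 FPKM in EC and 102 and 119 in SC (differences -2.09 and -1.67). Bin1, which shapes membrane tubules in muscle, had 21.2 and 21.5 FPKM in SC and 2.22, 2.27 and 1.8 in EC. Of 32 genes of regulated secretion 13 (6 to 8 without SC replicates 1 or 3) were higher in EC and 3 (1 without EC replicates 1 or 2 or SC replicates 1 or 3) in SC (13 and 1 under all 4 scalings). Stxbp6, amisyn, had 14.3, 10.1 and 12.9 FPKM in EC and 0.466 and 0.778 in SC. Sytl2, a synaptotagmin-like effector of Rab27, was the gene that stayed called in SC, with 24.8 and 27.9 FPKM against 0.517, 0.29 and 0.465. Tetraspanins, which organise membrane domains, were higher in EC for 9 (5 without SC replicate 1) of 19 and in SC for 3. Tspan13 had 116, 91.5 and 104 FPKM in EC and 1.4 and 0 in SC (difference -6.08), and Cd63, common on vesicles released by cells, the reverse with 112 and 119 in SC and 3.03, 4.81 and 4.47 in EC (difference 4.53, adjusted p = 0.000177). Among 63 lysosome and autophagy genes 13 (12 under all 4 scalings, 4 to 6 without EC replicate 1 or SC replicates 1 or 3) were higher in EC and 5 (1 under all 4 scalings, 0 to 3 without EC replicates 1 or 3 or SC replicates 1 or 3) in SC. Ctsd, cathepsin D, had 53.7, 70.2 and 50.6 FPKM in EC and 30.2 and 25.8 in SC, with an adjusted p of 0.0526 without EC replicate 1, 0.0792 without SC replicate 1 and 0.115 without SC replicate 3. Bnip3l, a mitophagy receptor, had 22.6, 28.1 and 22.3 FPKM in EC and 8.89 and 10.5 in SC, with an adjusted p of 0.0555 without SC replicate 1.

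Guidance receptors and their ligands, first described on growing axons, differed in both directions. Of 8 Eph receptors and ephrins 5 were higher in EC and none in SC. Efnb2, the ephrin of arterial endothelium, had 46, 47.5 and 48.3 FPKM in EC and 2.24 and 2.05 in SC (difference -3.94). Its receptor Ephb4 had 43.9, 44.6 and 41.4 FPKM in EC and 5.04 and 6 in SC. Of 20 semaphorins, plexins and neuropilins 10 were higher in EC and 2 (1 under all 4 scalings, 1 without EC replicates 1 or 3 or SC replicates 1 or 3) in SC. Sema7a, a membrane-anchored semaphorin, had 40.2, 32.3 and 44.8 FPKM in EC and 0.096 and 0 in SC. Sema3g had 30.8, 46 and 29.9 FPKM in EC and 1 and 0.919 in SC. Sema3b showed the opposite with 3.57 and 3.84 FPKM in SC and 0.152, 0.239 and 0.157 in EC. Slit, Robo, netrin and Flrt genes leaned to SC, with 7 (6 under all 4 scalings) of 14 higher there and 4 (2 without EC replicates 1 or 3 or SC replicates 1 or 3) higher in EC. Flrt1, an adhesion protein with a fibronectin domain, had 20.0 and 14.9 FPKM in SC and 0.132, 0.136 and 0.114 in EC (difference 4.02). Rgma, a co-receptor for bone morphogenetic proteins, had 16.2 and 20.0 FPKM in SC and 2.17, 0.746 and 2.01 in EC. The netrin receptor Unc5b had 9.3, 6.77 and 10.5 FPKM in EC and 0.342 and 0.292 in SC.

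Genes of G protein and second messenger signalling differed gene by gene. Adhesion receptors were higher in EC for 5 of 10 and in SC for 2 (1 without SC replicates 1 or 3): Adgrg1 had 58.6, 57.2 and 58.1 FPKM in EC and 0.76 and 0.371 in SC. Adgra3 had 1.42, 1.71 and 2.31 FPKM in EC and 11.8 and 14.1 in SC. Of 8 RGS proteins, which switch G proteins off, 4 were higher in EC and none in SC, among them Rgs3 with 16, 15.2 and 14.9 FPKM in EC and 0.342 and 0.575 in SC. Cyclic nucleotide genes numbered 10 (6 without SC replicate 1) higher in EC and 8 (6 under all 4 scalings, 5 without SC replicates 1 or 3) higher in SC of 34. The phosphodiesterase Pde2a and the anchoring protein Akap12 were higher in EC. Pde2a had 71, 66.7 and 64.7 FPKM in EC and 2.64 and 4.22 in SC, and the values of Akap12 were 88.5, 77.4 and 99.4 FPKM in EC and 8.59 and 7.06 in SC. Pde4b had 73.3 and 53.2 in SC and 10.5, 12 and 10.7 in EC (difference 2.40). Potassium channels were higher in EC for 5 (2 to 3 without SC replicates 1 or 3) and in SC for 5 (3 under all 4 scalings, 2 to 3 without EC replicates 1 or 3 or SC replicates 1 or 3) of 14: Kcna5, a voltage-gated channel, had 42, 34.3 and 40.2 FPKM in EC and 0.72 and 0.283 in SC. Kcnma1, the large-conductance calcium-activated channel, had 0.0982, 0 and 0.161 FPKM in EC and 7.07 and 4.25 in SC. Of 36 other channel genes 8 (3 to 4 without SC replicates 1 or 3) were higher in EC and 6 in SC. The SC count was near the 16.4% over all tested genes, of which 13.0% were higher in EC. Clic5 had 46.3, 34.2 and 48.1 FPKM in EC and 0.429 and 0.845 in SC. The endosomal chloride transporter Clcn5 had 12.3 and 17.7 FPKM in SC and 0.617, 0.307 and 0.669 in EC (difference 3.37).

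Of 12 tested members of the Hedgehog pathway, in which a ligand bound by patched frees smoothened to activate Gli factors, 8 (5 without SC replicates 1 or 3) were higher in SC, 7 of them under all 4 scalings, and none higher in EC, with a median of 1.51. The co-receptors Cdon, Gas1 and Boc were higher in SC. Cdon had 48.7 and 59.3 FPKM in SC and 1.6, 1.98 and 1.63 in EC. Gas1 had 36.1 and 47.9 FPKM in SC and 2.28, 0.803 and 2.67 in EC. Boc had 10.4 and 12.5 FPKM in SC and 1.99, 1.48 and 1.24 in EC (differences 4.33, 3.93 and 2.28). The factor Gli2 had 9.44 and 9.78 FPKM in SC and 0.0904, 0.0557 and 0 in EC. Gli1, itself a target of the pathway, had 2.79 and 5.46 FPKM in SC and 0.343, 0 and 0.0912 in EC. Smo had 10.8 and 10.4 FPKM in SC and 3.26, 1.69 and 2.52 in EC, with an adjusted p of 0.0644 without SC replicate 1 and 0.0605 without SC replicate 3. The receptor Ptch1, also a target, was not called and overlapped between groups, with 3.3 and 5.86 FPKM in SC and 5.18, 5.22 and 4.27 in EC (adjusted p = 0.788). The primary cilium, where the pathway is known to signal, had 15 (5 to 7 without any 1 library) of 46 members higher in SC and none in EC, but 6 under all 4 scalings. Cc2d2a, a protein of the ciliary transition zone, had 6.11 and 8.89 FPKM in SC and 1.4, 1.9 and 1.95 in EC.

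Nerve-related receptors, ligands and synapse genes were higher in SC for 17 (11 without EC replicate 3) of 28 tested members and in EC for 3 (13 and 2 under all 4 scalings), with a median of 1.20. The components of the acetylcholine receptor apparatus were among them: Musk, the receptor kinase for agrin signals, had 13.5 and 15.6 FPKM in SC and values listed at 0 in EC, its partner Rapsn had 11.5 and 19.6 FPKM in SC and 0.333, 0 and 0 in EC, and the receptor subunits Chrna1 and Chrnb1 were higher in SC. Chrna1 had 10.5 and 11.7 FPKM in SC and 0.214, 0.123 and 0.336 in EC, and the values of Chrnb1 were 34.9 and 47.3 FPKM in SC and 8.86, 4.58 and 7.95 in EC. SC values lay above EC values for each, and the adjusted p of Chrnb1 was 0.0595 without SC replicate 3. The ligand Agrn lay on the other side, with 11.2, 9.36 and 12.1 FPKM in EC and 1.33 and 2.95 in SC (difference -1.96), as did Shank3, a synaptic scaffold (32.7, 26.2 and 37.4 FPKM in EC and 0.421 and 0.609 in SC). Gfra1, a co-receptor for glial cell line-derived neurotrophic factor, had 13.7 and 11.7 FPKM in SC and 0.178, 0.0518 and 0 in EC. Myofibre markers were also higher in both SC libraries, and fibres transcribe receptor subunit genes below the nerve terminal. The part of fibre RNA was not tested here.

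Imprinted genes, expressed from 1 parental copy, were higher in SC for 16 of 31 tested members, 15 under all 4 scalings, and higher in EC for 2 (1 without SC replicate 1), with a median of 1.11. The zinc finger gene Peg3 had 89.7 and 118 FPKM in SC and 2.68, 1.05 and 4.64 in EC (difference 4.89). Its neighbour Zim1 on chromosome 7 had 23.3 and 13.3 FPKM in SC and 0.0789, 0 and 0.256 in EC. H19, a long noncoding RNA, had 38.6 and 57.8 FPKM in SC and 1.95, 0.58 and 2.39 in EC (difference 4.26), while Igf2 beside it was not called. From the chromosome 12 cluster that also holds many microRNAs, Meg3, Rian and Mirg were higher in SC. Meg3 had 14.5 and 10.5 FPKM in SC and 0.284, 0.106 and 0.225 in EC. Rian had 23.2 and 23.8 FPKM in SC and 0.738, 0.0888 and 1.2 in EC. Mirg had 3.26 and 3.87 FPKM in SC and 0.124, 0 and 0.191 in EC. Rtl1, transcribed from the other strand, had 5.08 and 4.64 FPKM in SC and 0.264, 0 and 0.519 in EC. The kit kept strand, but whether counting used it is not given in the sources used here, so overlapping genes cannot be told apart with certainty. Peg13 and Zrsr1 were the 2 members higher in EC, Peg13 with 18.1, 15.1 and 19.4 FPKM in EC and 3.61 and 4.18 in SC. Of 37 snoRNA host and other long noncoding genes 16 (13 under all 4 scalings, 8 to 9 without SC replicates 1 or 3) were higher in SC and 2 (1 without EC replicates 1 or 3 or SC replicates 1 or 3) in EC. Gas5, a snoRNA host, had 38.5 and 39.8 FPKM in SC and 13.6, 15 and 13.6 in EC (difference 1.41). Snhg4 had 30.0 and 18.4 FPKM in SC and 0.434, 0.0297 and 0.429 in EC.

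Transcription factors of limb and trunk patterning divided by Hox cluster. Of 54 homeobox and T-box genes tested 21 were higher in SC and 16 (10 without SC replicate 1) in EC (20 and 16 under all 4 scalings). Within them, the Hoxc genes had 5 (3 without SC replicate 3) of 6 higher in SC and none in EC, whereas the Hoxb genes had 6 of 8 and the Hoxd genes 3 of 3 higher in EC and none in SC. Of 9 Hoxa genes 1 (0 without SC replicates 1 or 3) was higher in SC and 1 (2 without SC replicate 3) in EC, where 2 were called by median of ratios and without the top genes. These cluster counts were made after the values were seen. Hoxc10 and Hoxc9 on chromosome 15 were higher in SC. Hoxc10 had 14.8 and 12.6 FPKM in SC and 1.12, 0.493 and 0.258 in EC, and the values of Hoxc9 were 6.08 and 7.73 FPKM in SC and 0.377, 0.216 and 0 in EC. Hoxb7 and Hoxb6 on chromosome 11 were higher in EC. Hoxb7 had 12.1, 16.5 and 9.13 FPKM in EC and 0 and 0.691 in SC, and the values of Hoxb6 were 7.32, 9.27 and 8.67 FPKM in EC and 0 and 0.729 in SC. Hoxd8 on chromosome 2 had 8.72, 8.99 and 8.13 FPKM in EC and 1.44 and 2.86 in SC. Meox2 and Meox1, relatives known from somites and vessels, were higher in EC. Meox2 had 66, 76 and 63.9 FPKM in EC and 1.45 and 0.303 in SC, and the values of Meox1 were 9.02, 20.1 and 10.4 FPKM in EC and 0 and 0.4 in SC (differences -5.28 and -3.50). Lbx1, needed by migrating muscle precursors, had 7.98 and 7.71 FPKM in SC and values listed at 0 in EC. En1 had 9.53 and 5.18 FPKM in SC and 0.176, 0 and 0 in EC. Among forkhead, Gata and Ets factors 8 (5 without EC replicate 3 or SC replicates 1 or 3) of 30 were higher in EC and 6 (2 under all 4 scalings, 1 to 3 without EC replicates 1 or 3 or SC replicates 1 or 3) in SC. The Ets factor Elk3 had 49.5, 51.9 and 50.6 FPKM in EC and 3.49 and 3.72 in SC (difference -3.49). The nuclear receptor Pparg had 15.4, 11.6 and 18.6 FPKM in EC and 0.495 and 0.313 in SC, within a list of 21 that gave 6 (2 without SC replicates 1 or 3) higher in EC and 6 (4 under all 4 scalings, 2 to 3 without SC replicates 1 or 3) in SC.

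The clock list had 7 (4 without SC replicate 1) of 20 members higher in SC and none in EC, 5 of them under all 4 scalings. Of the core oscillator genes, Clock, Arntl, Cry1 and Cry2 were not among the calls, and the calls of the others are not reported here. The output repressors Bhlhe40 and Nfil3 were higher in SC. Bhlhe40 had 89.3 and 106 FPKM in SC and 28, 26.7 and 28.4 in EC, and the values of Nfil3 were 69.4 and 50.2 FPKM in SC and 8.69, 12.7 and 10.5 in EC (differences 1.77 and 2.38), and both also respond to stress signals. Cell cycle inhibitors and D cyclins were divided, with 8 (5 under all 4 scalings, 0 to 4 without EC replicate 1 or SC replicates 1 or 3) higher in SC and 3 higher in EC of 24. Ccnd2 had 10.2, 10.2 and 11.9 FPKM in EC and 1.04 and 0.659 in SC. Ccnd1 had 7.28, 4.61 and 10.6 FPKM in EC and 24.6 and 31.9 in SC, with an adjusted p of 0.0883 without SC replicate 1 and 0.123 without SC replicate 3 for Ccnd1. The retinoblastoma gene Rb1 was higher in EC with 9.26, 10.1 and 11.4 FPKM against 3.99 and 3.93. Apoptosis regulators were higher in EC for 12 (4 to 6 without SC replicates 1 or 3) of 34 and in SC for 4 (0 to 2 without any 1 library). Under all 4 scalings these counts were 12 and 1. Genes that promote and genes that inhibit cell death were among them. Casp8, an initiator caspase, had 26.4, 23 and 22.9 FPKM in EC and 1.49 and 2.22 in SC. Bcl2l1, which inhibits apoptosis, had 14, 17.1 and 17.2 FPKM in EC and 1.67 and 2.45 in SC. Of 27 p53 targets 4 (2 under all 4 scalings, 1 to 2 without EC replicate 1 or SC replicates 1 or 3) were higher in SC and 2 (1 without SC replicates 1 or 3) in EC, below the 16.4% and 13.0% over all tested genes. On the EC side Plk2 had 167, 146 and 174 FPKM against 38.9 and 48.5 in SC.

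Matrix genes were higher in SC for 10 (5 without SC replicates 1 or 3) of 22 collagens (8 under all 4 scalings) and in EC for 3 (1 without SC replicate 1). Col5a1, a chain of fibril-forming collagen, had 26.5 and 33 FPKM in SC and 2.04, 0.0301 and 2.58 in EC (difference 3.77). Col6a1, of the collagen that surrounds muscle fibres, had 59.6 and 72.8 FPKM in SC and 12.2, 2.89 and 12.6 in EC. Their adjusted p-values were 0.0798 without SC replicate 1 and 0.091 without SC replicate 3 for Col5a1 and 0.127 without SC replicate 1 and 0.151 without SC replicate 3 for Col6a1. Col3a1 had 108 and 113 FPKM in SC and 21.1, 2.43 and 25.6 in EC, and its call (adjusted p = 0.0496) was lost under 2 other scalings and without EC replicate 1, EC replicate 3 or either SC library (adjusted p = 0.0643 without EC replicate 1, 0.0523 without EC replicate 3, 0.242 without SC replicate 1 and 0.249 without SC replicate 3). The basement membrane chain Col4a2 had 222, 112 and 251 FPKM in EC and 37.6 and 51.8 in SC, with an adjusted p of 0.135 without SC replicate 1 and 0.0963 without SC replicate 3. EC replicate 2 was the lowest EC library for all of these. Fibro-adipogenic markers, a list that holds Col1a1 and Col3a1 themselves, summed to 203, 154 and 237 FPKM in EC and 465 and 458 in SC. Ly6a led the EC sums, with 94.5, 104.5 and 116.3 FPKM in EC and 1.65 and 1.09 in SC. Gsn led the SC sums, with 203.1 and 202.2 FPKM in SC and 28.1, 20.5 and 30.4 in EC. In this list 3 of 11 were higher in SC. Of these, Dpt, dermatopontin, had 103 and 95.5 FPKM in SC and 3.66, 0.232 and 4.17 in EC, with an adjusted p of 0.0699 without SC replicate 1 and 0.067 without SC replicate 3. Dcn, a defining marker of these cells, had 19.2 and 15.2 FPKM in SC and 22, 10.2 and 20.0 in EC. Col1a1 had 22.4 and 23.8 FPKM in SC and 22.6, 3.38 and 27.6 in EC, and neither was called (adjusted p = 0.942 and 0.553). The part of fibro-adipogenic cells in the collagen values was not tested.

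Proteases, inhibitors and proteoglycans were split. Mmp2, a gelatinase, had 44.8 and 52.2 FPKM in SC and 3.3, 3.51 and 2.81 in EC (difference 3.56). Adamts5, which cleaves versican, had 10.5 and 14.2 FPKM in SC and 2.22, 1.82 and 1.57 in EC. The inhibitor Timp3 and the endothelin-converting enzyme Ece1 were higher in EC. Timp3 had 164, 171 and 165 FPKM in EC and 31 and 19.8 in SC, and the values of Ece1 were 112, 149 and 114 FPKM in EC and 16 and 16.8 in SC. In all, 10 (7 under all 4 scalings, 4 to 6 without EC replicates 1 or 3 or SC replicates 1 or 3) of 33 protease genes were higher in SC and 9 in EC. Of 12 serpins 4 (2 under all 4 scalings, 2 without EC replicate 1 or SC replicates 1 or 3) were higher in SC and 2 (1 without SC replicate 3) in EC. Serping1, the C1 inhibitor, had 85.2 and 79.5 FPKM in SC and 15.4, 16.5 and 16 in EC. Serpinb9, an inhibitor of granzyme B, had 1.27 and 1.87 FPKM in SC and 14.1, 19.4 and 16.3 in EC. Of 27 heparan sulphate genes 7 (5 under all 4 scalings, 3 to 4 without SC replicates 1 or 3) were higher in SC and 1 (0 to 3 without EC replicate 2 or SC replicates 1 or 3) in EC. The glypican Gpc1, which holds fibroblast growth factors at the membrane, had 16.5 and 20.7 FPKM in SC and 0.745, 0.22 and 0.508 in EC. Sdc2 had 15.2 and 14.8 FPKM in SC and 2.49, 1.01 and 2.89 in EC, with an adjusted p of 0.067 without SC replicate 1 and 0.0646 without SC replicate 3 for Sdc2.

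Several signalling lists had calls in both directions. Of 27 Wnt genes 8 (5 under all 4 scalings, 3 to 4 without SC replicates 1 or 3) were higher in SC and 5 in EC: Ror1, a receptor for noncanonical Wnt ligands, had 21.2 and 20.1 FPKM in SC and 1.1, 0.461 and 1.47 in EC. Fzd4 had 18.8 and 23.9 FPKM in SC and 50.7, 50.2 and 53.1 in EC. For TGF-beta and BMP genes the counts were 16 (9 to 10 without SC replicates 1 or 3) and 7 (3 without EC replicate 3 or SC replicates 1 or 3) of 44, and 11 and 7 under all 4 scalings. Skil, a repressor of Smad proteins, had 62.8 and 41 FPKM in SC and 10.6, 9.08 and 10.9 in EC. Among MAP kinase phosphatases and Sprouty genes 6 (5 under all 4 scalings, 3 without SC replicates 1 or 3) of 20 were higher in SC and 5 (2 to 3 without EC replicates 1 or 3 or SC replicates 1 or 3) in EC, where Dusp6, an ERK phosphatase, had 30.1, 23.3 and 29.1 FPKM against 7.45 and 9.66 in SC. Toll-like receptor and NF-kappaB genes were higher in EC for 6 (3 without SC replicate 1) of 33 and in SC for 5 (0 to 3 without any 1 library) as deposited and 0 under all 4 scalings, shares near the 13.0% and 16.4% over all tested genes. Irak3, an inhibitor of these receptors, had 10.5, 12.5 and 12.1 FPKM in EC and 2.65 and 2.48 in SC. Prostaglandin genes gave 4 (0 to 2 without EC replicates 1 or 3 or SC replicates 1 or 3) higher in EC and 1 (0 under all 4 scalings, 0 without any 1 library) in SC of 13. Ptgs1, cyclooxygenase 1, had 6.17, 19.9 and 6.9 FPKM in EC and 0.209 and 0.325 in SC, with an adjusted p of 0.1 without SC replicate 1 and 0.0934 without SC replicate 3. Among 29 YAP, TEAD and target genes 8 (7 under all 4 scalings, 4 without SC replicates 1 or 3) were higher in SC and 3 (2 under all 4 scalings, 1 without EC replicate 1 or SC replicate 3) in EC. Vgll3, a TEAD cofactor, had 31 and 38.4 FPKM in SC and 0.55, 0 and 0.393 in EC (difference 4.78), and the EC side included Crim1 with 35, 35.5 and 35.5 FPKM against 7.05 and 4.73.

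Metabolic lists differed in both directions. Cholesterol synthesis and uptake had 8 (6 under all 4 scalings, 4 to 5 without SC replicates 1 or 3) of 20 members higher in SC and 1 (0 without EC replicates 2 or 3 or SC replicate 1) in EC. Srebf2, the transcription factor that drives these genes, had 18.7 and 26 FPKM in SC and 3.73, 2.64 and 5.56 in EC, with an adjusted p of 0.0658 without SC replicate 3. Carriers of amino acids, sugars and lactate were higher in SC for 14 (10 under all 4 scalings, 6 to 9 without EC replicates 1 or 3 or SC replicates 1 or 3) of 40 and in EC for 5 (2 to 3 without EC replicates 1 or 3 or SC replicates 1 or 3). Slc7a5 and Slc7a8, both light chains of large neutral amino acid transporters, were higher in SC. Slc7a5 had 20.6 and 18.3 FPKM in SC and 1.07, 1.11 and 1.59 in EC, and the values of Slc7a8 were 27.2 and 19.8 FPKM in SC and 0, 0 and 0.165 in EC. Slc28a2, a nucleoside carrier, had 31.8, 19.9 and 28.7 FPKM in EC and 0.372 and 0.183 in SC (difference -4.42). Serine, folate and nucleotide synthesis had 16 (3 to 8 without EC replicate 1 or SC replicates 1 or 3) of 32 higher in SC, 9 under all 4 scalings, and 2 (0 to 1 without SC replicates 1 or 3) in EC. Retinoid genes gave 4 higher in EC and 1 (2 without EC replicate 3) in SC of 17. Besides Rbp7, the retinal reductase Dhrs3 and the retinoic acid hydroxylase Cyp26b1 were higher in EC. Dhrs3 had 42.7, 30.2 and 47.9 FPKM in EC and 3.63 and 3.83 in SC, and the values of Cyp26b1 were 17.2, 11.5 and 17.6 FPKM in EC and 0.453 and 0.44 in SC, whereas Aldh1a1, which makes retinoic acid, had 8.96 and 4.47 in SC and 0.379, 0.327 and 0 in EC. Glutathione and antioxidant genes were higher in SC for 7 (3 under all 4 scalings, 2 to 4 without EC replicate 1 or SC replicates 1 or 3) of 43 and in EC for 4 (2 without EC replicate 3), near the background. Txnip, which binds thioredoxin, had 182, 183 and 189 FPKM in EC and 63.1 and 75.6 in SC. Metal-handling genes gave 6 (4 under all 4 scalings, 2 without SC replicates 1 or 3) and 5 (2 to 3 without EC replicate 1 or SC replicates 1 or 3) of 29, also near the background: the copper chaperone Atox1 had 28.7, 37.6 and 28 FPKM in EC and 4.61 and 8.07 in SC. The zinc importer Slc39a14 had 2.75, 3.14 and 2.51 FPKM in EC and 15.4 and 11.5 in SC.

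Genes of ribosome production and protein folding lost many of their calls under another scaling, but so did all tested genes higher in SC. Over all tested genes 2618 (16.4%) were higher in SC as deposited and 1562 (9.76%) under all 4 scalings. Ribosome biogenesis had 33 (8 to 16 without SC replicates 1 or 3) of 60 members higher in SC and none in EC, with a median of 0.95, but 18 under all 4 scalings. Ddx21, an RNA helicase of the nucleolus, had 48.7 and 51.8 FPKM in SC and 18.8, 16.3 and 18.9 in EC (difference 1.44) and remained called, while Ncl, nucleolin, with 94.4 and 103 FPKM in SC and 42, 45.8 and 43.2 in EC did not remain called under all 4 scalings. Translation factors gave 27 (6 to 13 without EC replicates 1 or 3 or SC replicates 1 or 3) higher in SC and 1 in EC of 56, and 10 and 1 under all 4 scalings. Eif2ak2, the interferon-induced kinase PKR and the gene higher in EC, had 13.1, 11.7 and 11.9 FPKM there and 2.46 and 3.18 in SC. Wars, another gene known to respond to interferon, was the tRNA synthetase higher in EC (18.8, 19.5 and 21.3 FPKM against 5.43 and 7.57), among 32 of which 7 (2 under all 4 scalings, 0 to 4 without EC replicate 1 or SC replicates 1 or 3) were higher in SC. Chaperones were higher in SC for 24 (7 to 13 without EC replicate 1 or SC replicates 1 or 3) of 51, 9 under all 4 scalings, and in EC for 4. Dnajb1 and Bag3, which respond to heat and unfolded proteins, were higher in SC. Dnajb1 had 257 and 401 FPKM in SC and 67.3, 62.4 and 69.4 in EC, and the values of Bag3 were 161 and 154 FPKM in SC and 47.6, 52.2 and 54.6 in EC, in libraries whose immediate early genes were also higher. The part of the immediate early response in these values was not tested. Hspa12b, by contrast, had 38.7, 30.9 and 33.6 FPKM in EC and 1.18 and 1.99 in SC. In the endoplasmic reticulum list 14 (2 to 8 without EC replicates 1 or 3 or SC replicates 1 or 3) of 44 were higher in SC as deposited and 2 under all 4 scalings, with 4 (0 to 2 without any 1 library) higher in EC. Hspa5, the main chaperone of this compartment, had 305 and 259.6 FPKM in SC and 54.9, 44.7 and 41 in EC (difference 2.57) and stayed called.

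Other housekeeping lists gave fewer calls, and those of chromatin enzymes and mitochondrial ribosomal proteins were below the background of 16.4% and 13.0%. Splicing factors gave 11 (4 to 7 without EC replicate 1 or SC replicates 1 or 3) higher in SC and 1 in EC of 50 (4 and 1 under all 4 scalings), and Ptbp3 was the counted member higher in EC, with 25.9, 27.9 and 27.3 FPKM against 11.2 and 10.2 in SC. Chromatin enzymes gave 13 (6 under all 4 scalings, 3 to 8 without EC replicate 1 or SC replicates 1 or 3) and 5 (3 without EC replicates 1 or 3 or SC replicate 1) of 90, mitochondrial ribosomal proteins 8 (2 under all 4 scalings, 0 to 5 without any 1 library) and 1 (0 without EC replicates 1, 2 or 3) of 74, and none of the 13 mitochondrially encoded mRNAs was called.

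Some genes with a shared symbol stem differed in opposite directions. Over symbol stems, 175 pairs from 54 stems had 1 member higher in SC and another higher in EC, each by at least 2. A gene can enter several of these pairs, and stems such as Fam and Tmem are groups of names. How many pairs the calls over all genes would give by themselves was not counted. The following were named after their values were seen. Ranked by the smaller of their 2 differences, the endothelins led the pairs outside the marker lists. Edn1, the potent vasoconstrictor, had 22.7, 29.5 and 21.6 FPKM in EC and was listed at 0 in SC, whereas Edn3 had 33.9 and 25.7 in SC. Among Sox factors, the group known from vessels was high in EC and at most 1.55 FPKM in SC. Sox7 had 50.7, 43.5 and 53.9 FPKM in EC, Sox17 had 14.7, 17.2 and 17, and Sox18 had 59, 44.9 and 45.6. Sox8 and Sox9, of another group, were at most 0.197 FPKM in EC. Sox8 had 16.2 and 19.3 FPKM in SC and Sox9 had 21.5 and 23.8. The adenylyl cyclase Adcy4 had 29.2, 35.3 and 34.6 FPKM in EC and zeros in both SC libraries. Adcy2 had 16.1 and 20.9 FPKM in SC and zeros in all EC libraries. The laminin chain Lama4 had 28.6, 18.2 and 32.9 FPKM in EC and 0.563 and 0.401 in SC. Lama2, the chain of the muscle basement membrane, had 1.36, 0.112 and 0.861 FPKM in EC and 41 and 42.6 in SC. Integrin alpha chains that bind laminin or collagen divided likewise: Itga6 and Itga1 were higher in EC. Itga6 had 55.3, 40.7 and 54.2 FPKM in EC and 0.584 and 0.671 in SC, and the values of Itga1 were 68, 72.4 and 68.1 FPKM in EC and 1.04 and 0.553 in SC. Itga7 had 5.6, 1.84 and 6.63 FPKM in EC and 41.1 and 43.4 in SC, with an adjusted p of 0.0801 without SC replicate 1 and 0.0831 without SC replicate 3 for Itga7. Robo4 had 52.3, 43.9 and 51.2 FPKM in EC and Robo1 10.6 and 14.1 in SC. Notch4 had 8.85, 9.95 and 14.1 FPKM in EC and 0.173 and 0.297 in SC. Notch2 had 2.96, 2.03 and 3.21 FPKM in EC and 33.7 and 36.4 in SC. The class II histone deacetylase Hdac7 had 21.9, 15.9 and 24.1 FPKM in EC and 1.08 and 0.47 in SC. Hdac11 had 0.324, 0.0719 and 0.174 FPKM in EC and 9.73 and 8.97 in SC. The sialyltransferases divided too. St3gal6 had 7.79, 11.1 and 8.97 FPKM in EC and 0 and 0.0871 in SC. St3gal5 had 3.65, 1.24 and 2.55 FPKM in EC and 27.1 and 31.4 in SC.

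**Figure D5:**
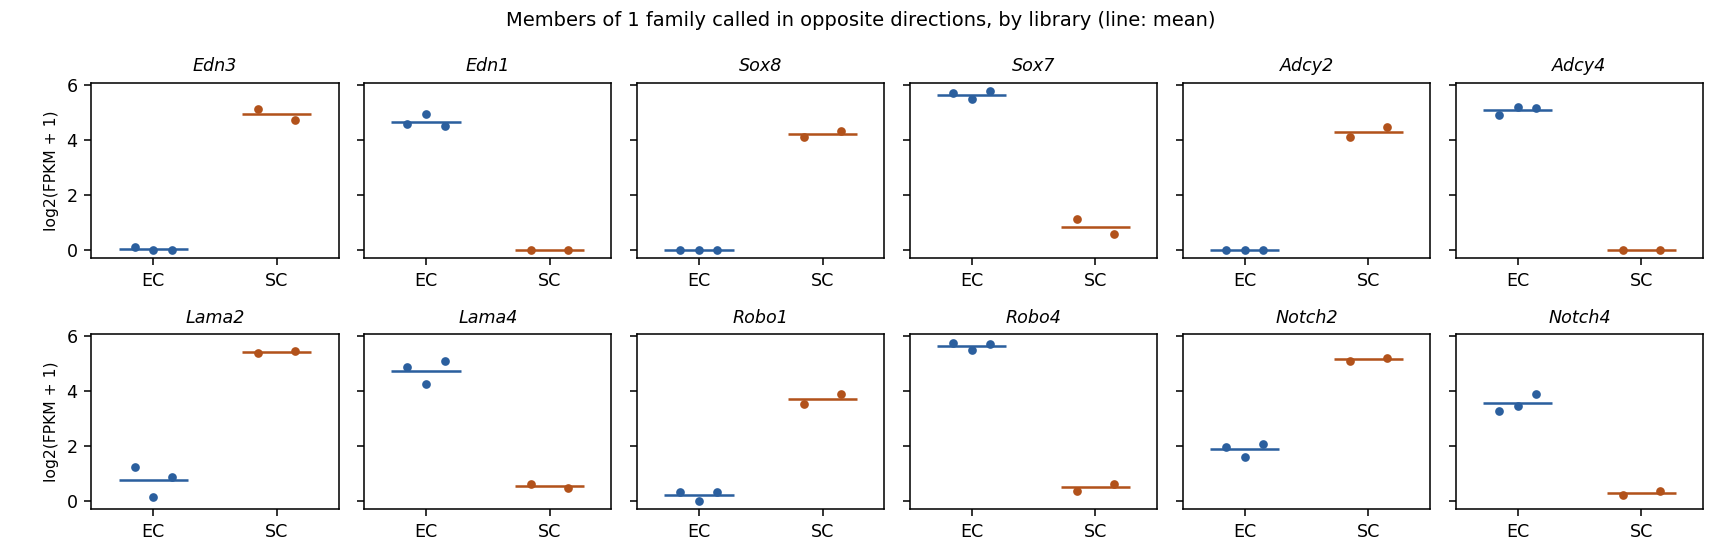
Values of 12 genes from 6 families on the log2(FPKM + 1) scale (y axis) in each library, EC in blue and SC in orange, with a line at each group mean. In each pair the first gene is high in SC and the second in EC with no overlap, as for Edn3 (33.9 and 25.7 FPKM in SC) and Edn1 (22.7, 29.5 and 21.6 FPKM in EC).

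Larger symbol families were also counted, 95 of them with at least 12 tested members. Shared letters of a symbol do not always mean shared descent, so these are groups of names. The largest shares higher in SC were those of Rpl (41 of 47), Rps (27 of 42), Col (10 of 23), and Adamts, Hspa and Fkbp (5 of 12 each). Under all 4 scalings they were 18, 16, 8, 4, 3 and 0, and without SC replicate 1 they were 7, 8, 5, 3, 2 and 2, and without SC replicate 3 they were 10, 9, 5, 3, 2 and 1. Rpl4 had 905 and 946 FPKM in SC and 239, 432 and 247 in EC and Rps24 758 and 797 FPKM in SC and 267, 428 and 266 in EC, with EC replicate 2 between the other EC libraries and SC for both, and such genes have many near-identical pseudogenes. The adjusted p of Rpl4 was 0.072 without EC replicate 1, 0.0759 without EC replicate 3, 0.11 without SC replicate 1 and 0.12 without SC replicate 3, and the call of Rps24 was lost without the same libraries (0.101 without EC replicate 1, 0.106 without EC replicate 3, 0.122 without SC replicate 1 and 0.136 without SC replicate 3). The largest shares higher in EC were Pik (7 of 12), Myo (7 of 12), Tspan (8 of 14), Sema (7 of 13), Cyp (6 of 12) and St (7 of 15), and these counts were the same under all 4 scalings. Without SC replicate 1 they were 4, 4, 5, 6, 4 and 4, and without SC replicate 3 they were 7, 4, 8, 5, 3 and 6. Pik3r3, a regulatory subunit of phosphoinositide 3-kinase, had 13.4, 14.2 and 12.2 FPKM in EC and 2.44 and 1.85 in SC. Myo10, the myosin of filopodia, had 69.4, 47.1 and 61.8 FPKM in EC and 6.89 and 9.94 in SC, and Cyp4b1, a fatty acid hydroxylase, had 21.2, 24 and 23.9 FPKM in EC and values listed at 0 in SC.

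Of 169 genes with a mean of at least 50 FPKM in both populations, 91 were not called, 62 were higher in SC and 16 higher in EC. Small differences with close replicates were those of Dstn, an actin-severing protein (65.1, 65.5 and 61.1 FPKM in EC and 61.8 and 64.1 in SC, difference -0.02, SE 0.16), Rad21, a cohesin subunit (58.8, 51.7 and 55.8 FPKM in EC and 55.6 and 57.6 in SC, SE 0.16), and Ephx1, an epoxide hydrolase (61.4, 73.2 and 71.4 FPKM in EC and 69.4 and 66.7 in SC, SE 0.18). Cfl1, cofilin, had 169.8, 126 and 180.1 FPKM in EC and 147 and 163 in SC. The intermediate filament gene Vim, often taken as a mesenchymal marker, had 123, 178 and 103 FPKM in EC and 130.2 and 129 in SC (adjusted p = 0.972). The groups overlapped for all of them. A missed threshold does not show that the levels are equal, and rescaling without the most abundant genes moved the median of all genes by -0.25.

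Promoter letters were compared between the genes with the largest stable differences. Windows from 250 bases before to 50 bases after the start were at hand for 336 of 572 genes higher in SC by at least 2 under all 4 scalings and for 530 of 767 such genes higher in EC. The E-box CAGCTG, the form bound by myogenic factors, was found for 27.1% of the SC set, 25.1% of the EC set and 17.9% of 8961 tested genes with a window. The Ets core CCGGAA was found for 22.9% of the SC set and 12.8% of the EC set, against 31.3% of tested genes. The KLF sequence CCACCC was found for 52.1%, 48.7% and 40.9%, the AP-1 sequence TGACTCA for 8.33%, 9.43% and 4.27%, and the interferon-stimulated response element for 2.38%, 9.06% and 3.76%. Searches used both strands, and overlaps among motifs were not removed. Mean GC content of the windows was 61.1% in the SC set, 58.7% in the EC set and 61.0% in tested genes. These shares describe letters only, and no test was made on them.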

How the data were processed

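RNA was measured in 3 endothelial cell and 2 satellite cell libraries, grouped by sample title. Per the submitters' processing notes, FastQC, Trimmomatic, HISAT2, StringTie and bedtools were used with build mm10. The sources used here do not give versions, settings or strand use in counting. The gene table holds FPKM for 36048 genes, per the file headers. A second deposited table holds TPM, with the authors' mean TPM and a score of specificity whose formula is not stated. Read coverage, from the deposited transcript table, gave the aligned bases of each library (277.9 to 367.8 Mb, at which 1 fragment on 1 kb is 0.272 to 0.360 FPKM). Per the labels, 1 unnamed sample missed the RNA quality of the others.

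Genes with 1 FPKM or more in 2 libraries were tested with limma 3.58.1 (R 4.3.3, mean-variance trend) on log2(FPKM + 1), two-sided, with Benjamini-Hochberg adjustment over 16001 genes and a threshold of 0.05. Other libraries did not enter the fit. The calculation was tested on simulated data. The 57 gene lists, 12 marker lists and their members were chosen with earlier results of these data known. Symbols found on more than 1 row were not counted in lists. Lists are described by counts, with no test of the list. The rule for named genes took, in each direction and outside the markers, predicted genes, short RNAs and pseudogenes, the 10 with the largest difference and the 10 most abundant with a difference of at least 3. It also took up to 3 members of each list in its main direction and 2 in the other, members of the 6 symbol families with the largest share in each direction, and, of uncalled genes with at least 50 FPKM in both groups, the 10 with the smallest difference. It ranked opposite members of a family by protein identity, and proteins were not used here, so the smaller difference ranked them. These opposite members, other uncalled genes and the interferon genes with promoters shown were named after their values were seen. Some genes and lists are not reported here. Promoters are from RefSeq, matched by symbol. Alternatives were other scalings, pseudocounts, filters, a stricter test, a replicate block, leaving out each library, all 8 libraries and the TPM table.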

Additional observations from a re-analysis of the deposited data

How the results depend on the processing

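As reported, 2618 genes were higher in SC and 2084 higher in EC. Leaving the 50 top genes of each group out of the scaling gave 1571 and 2553, and testing against an absolute log2 difference of 1 gave 500 and 711. Leaving out 1 library gave 1108 to 2384 genes higher in SC (fewest without SC replicate 3, most without EC replicate 2) and 1027 to 2184 higher in EC (fewest without SC replicate 1, most without EC replicate 2). The cause of these changes was not tested. Other counts, SC first, stayed within 1.5 times: 2337 and 2318 by median of ratios, 2737 and 2150 by upper quartile, 3512 and 2763 with all 8 libraries, 2236 and 2047 with a pseudocount of 0.1, 1926 and 1599 without a filter, 1829 and 1613 at 5 FPKM or more, and 2140 and 1646 in the TPM table, an alternative chosen after the data were seen. No named gene turned its direction. Named genes that lost their call numbered 57 without the most abundant genes, 157 in the test against an absolute log2 difference of 1, 117 with either SC replicate left out, 72 without EC replicate 1, 61 without EC replicate 3, 48 in the TPM table, and 3 to 38 in the others that lost any.

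The replicate block gave 2022 and 1946, and 27 named genes lost their call. Deviations from the group means correlated at 0.0958 for replicates 1 and 0.0396 for replicates 3. With so few SC libraries, the deviations of SC replicates 1 and 3 are mirror images of each other. Each EC library therefore correlates with them at values of equal size and opposite sign. For this reason the correlations cannot show whether the replicate numbers pair the samples.

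Precision is limited by 2 SC libraries and by values near 1 fragment. Without an SC library, its spread is taken from EC. No fragment counts were used, so counting error was not modelled.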
